A study of Mus musculus with 10 samples.

Results

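Interferon-stimulated genes are described here in the adrenal glands of Crem knock-out (KO) and wild-type (WT) mice. The list holds 37 genes, chosen by symbol because type I or type II interferon is known to raise their transcription. Of these, 33 were measured by a probe paired with that gene alone, among 19661 genes measured in this way, and a gene with several such probes was represented by the probe with the highest mean. Irf1 was the only member with more than 1 such probe. Isg15, Gbp2 and Igtp were measured only by probes shared with another gene and are given apart, and Ifi44 was not analysed here.

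The study asked what the absence of Crem changes in adrenal gene expression, with 1 whole-transcript Affymetrix array per mouse and RNA of the whole gland. The labels name 5 KO mice (Crem-/-, a germline disruption of the gene for the cAMP responsive element modulator) and 5 WT mice. The background of all 10 animals was mixed, 129Pas x C57Bl/J, and they were 8 weeks old, untreated, and killed at 0 h of circadian time, when the light went on. Because Crem was disrupted in every tissue, the KO is not specific to adrenal cells. Levels are log2 RMA values, 1 unit being a factor of 2, and differences are KO minus WT on that scale. Replicate numbers only name the arrays. The labels place the arrays in 4 batches without saying what a batch is. Batch 1 held KO 1, KO 2 and WT 1, batch 2 held KO 3 and KO 4, batch 3 held KO 5, WT 2, WT 3 and WT 4, and batch 4 held WT 5.

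Type I interferons bind a receptor built of Ifnar1 and Ifnar2 and, through Janus kinases, activate Stat2, which joins Irf9 in the complex ISGF3. This complex binds interferon-stimulated response elements, DNA stretches that hold repeats of GAAA, and switches on genes that sense, degrade or trap viral material. Interferon gamma works mainly through sites of another kind and raises Irf1 and several large GTPases. Whole tissue without infection is known to hold low, tonic expression of many of these genes, and in the adrenal gland resident macrophages and endothelial cells express them beside the steroid-producing cortex and the chromaffin cells.

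Promoters of the members were searched for GAAA, any 2 bases and GAAA again, or TTTC, any 2 bases and TTTC on the other strand, a core of the response element, in RefSeq windows of GRCm38.p6 that run from 250 bases before to 50 bases after each gene start. Of 32851 windows, 3.44% held a match, and of 15353 genes of the array with a window, 3.86% held one in any of their windows. Of the 27 members with a window, 16 held a match (59.3%), and of the 23 measured ones 13 did (56.5%). These are matches of letters, not sites of binding. Since the list was made of interferon-induced genes, the share is a description of the list. Of the members chosen for their p, range, or r to the mean of the others (sets of the naming rule, which leave out Ifit3 and Gbp3), Irgm1, Ddx58, Ifih1, Rsad2, Eif2ak2 and Ifit1 were the 6 with a match and the highest such r. For the 3 of them whose matches lay before the gene start, the 250 bases up to the start are shown, with each match in capitals. The window of Rsad2, a gene of the antiviral enzyme viperin, is chr12:26456453-26456702 on the minus strand. That of Ifit1, which binds foreign RNA ends, is chr19:34640639-34640888 on the plus strand, and that of Irgm1, a GTPase of cell-autonomous immunity, is chr11:48871421-48871670 on the minus strand.
Rsad2: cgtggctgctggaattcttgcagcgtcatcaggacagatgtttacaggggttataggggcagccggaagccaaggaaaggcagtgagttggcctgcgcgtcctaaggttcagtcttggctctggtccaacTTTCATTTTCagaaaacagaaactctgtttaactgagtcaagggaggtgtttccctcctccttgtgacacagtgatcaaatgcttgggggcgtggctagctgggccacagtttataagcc
Ifit1: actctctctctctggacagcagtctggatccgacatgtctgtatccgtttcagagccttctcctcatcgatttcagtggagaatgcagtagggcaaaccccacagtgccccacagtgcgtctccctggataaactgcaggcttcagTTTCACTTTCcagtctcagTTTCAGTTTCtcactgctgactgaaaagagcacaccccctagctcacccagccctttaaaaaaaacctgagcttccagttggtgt
Irgm1: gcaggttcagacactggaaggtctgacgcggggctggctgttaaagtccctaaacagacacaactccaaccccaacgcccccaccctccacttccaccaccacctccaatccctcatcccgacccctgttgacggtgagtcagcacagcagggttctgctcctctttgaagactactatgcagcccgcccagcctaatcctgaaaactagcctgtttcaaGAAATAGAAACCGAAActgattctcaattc

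Ifit1 held 2 matches, which began 104 and 85 bases before the start, and Irgm1 held 2 overlapping ones. The single match of Rsad2 began 120 bases before the start. For the 7 members whose levels followed the main axis of variation among the arrays (r over 0.5 with the first principal component, explained with the results), the 30 bases around the match nearest to the start read as follows on the strand of the gene.
Rsad2: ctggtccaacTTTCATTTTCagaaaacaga
Eif2ak2: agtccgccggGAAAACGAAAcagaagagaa
Ifit1: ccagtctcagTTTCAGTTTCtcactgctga
Ifih1: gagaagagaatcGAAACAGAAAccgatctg
Gbp3: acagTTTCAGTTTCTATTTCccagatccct
Ddx58: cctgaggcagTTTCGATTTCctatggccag
Irgm1: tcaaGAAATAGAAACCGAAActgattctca
The stretches lay at chr12:26456553-26456582 (Rsad2), chr17:78882535-78882564 (Eif2ak2), chr19:34640794-34640823 (Ifit1), chr2:62646206-62646235 (Ifih1), chr3:142559995-142560024 (Gbp3), chr4:40239804-40239833 (Ddx58) and chr11:48871425-48871454 (Irgm1), with Ifit1 and Gbp3 on the plus strand and the others on the minus strand. In Eif2ak2, Ifih1 and Ddx58 the match began at base 19, 33 and 3 after the start, and in the other 4 it lay before it.

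The 6 measured members below also held a match, although their levels did not follow that axis or ran against it. They are shown because similar letters stood in front of genes with unlike levels.
Ifit3: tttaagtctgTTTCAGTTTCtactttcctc
Ifi214: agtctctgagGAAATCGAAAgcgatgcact
Oas1a: tcggGAAATGGAAACTGAAAatctacttcc
Stat2: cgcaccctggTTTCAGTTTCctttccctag
Oas3: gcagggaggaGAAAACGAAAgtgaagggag
Bst2: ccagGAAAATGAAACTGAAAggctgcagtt
They lay at chr19:34583397-34583426 (Ifit3), chr1:173536017-173536046 (Ifi214), chr5:120907520-120907549 (Oas1a), chr10:128270266-128270295 (Stat2), chr5:120777715-120777744 (Oas3) and chr8:71537577-71537606 (Bst2), with Ifit3 and Stat2 on the plus strand and the others on the minus strand. Among the stretches shown, the run TTTCAGTTTC stood in Ifit1, Ifit3, Stat2 and Gbp3. Its form on the other strand, GAAACTGAAA, stood in Oas1a and Bst2. A second pattern, TTCNNNGAA, which reads the same on both strands and is a core of STAT sites, stood in 8.3% of all windows, in 9.09% of the array's genes with a window and in 7 of the 23 measured members (30.4%). The patterns may overlap and were counted separately. Of the 19 matches to the GAAA pair in measured members, 1 (in Bst2) overlapped with it.

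The arrays had medians between 7.17 and 7.25 and correlated with each other at r between 0.908 and 0.992 across 25664 probes. The number of arrays limits the precision. Crem itself did not separate the groups. Its level was 7.38, 7.97, 6.86, 6.84 and 7.77 on KO 1 to KO 5, against 7.45, 7.23, 8.14, 7.62 and 7.27 on WT 1 to WT 5, a difference of -0.18 (two-sided exact permutation p = 0.516, smallest possible p 0.00794). Whether its probe covers the disrupted part is not stated in the labels, so it does not check them. For 9 adipocyte markers, KO 1 had a mean of 12.51 and KO 3 of 12.34, while the other KO arrays had 8.2 to 9.27 and the WT arrays 8.86 to 10.68. On KO 1 the mean of 6 liver markers was 12.62, and 9 chromaffin markers averaged 8.04, below the 10.71 to 11.67 of all other arrays. The adrenal cortex markers (steroid enzymes and Star among them) averaged 12.33 to 12.94 on the KO arrays and 12.8 to 13.01 on the WT arrays. In whole tissue, fewer cells of a type and less RNA per cell cannot be told apart.

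Between the genotypes, no member passed the test. With limma, 0 of 25664 probes were called at an adjusted p of 0.05 (0.0%, smallest adjusted p 0.999), and 0 of the 33 members. Of the members, 22 had a lower mean in KO than in WT (66.7%, against 53.2% of all genes) and 11 a higher one. The median difference was -0.06, against -0.01 over all genes, and single differences ran from -0.46 for Trim25 to 0.57 for Ifit1. At an unadjusted p under 0.05, 1 member stood higher in KO (Ifi214) and 3 lower (Trim25, Stat2 and Irf9), where 0.732% of all genes stood higher and 2.88% lower (3.61% in either direction). Ifi214 was also the only member whose levels did not overlap between the genotypes, with every KO array above every WT array, as for 0.219% of all genes. No member had every KO array below every WT array (0.498% of all genes), so 0.717% of all genes stand beside the 1 member without overlap.

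**Figure D1:**
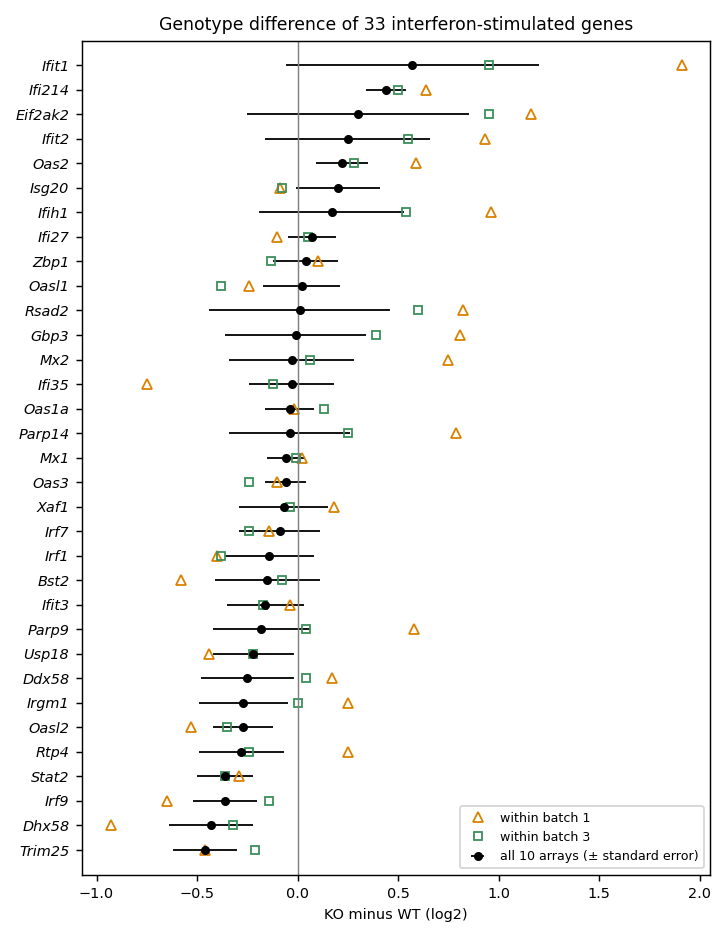
KO minus WT difference (log2) of each of the 33 measured members, as the limma estimate over all 10 arrays with its standard error (black points and bars) and within batch 1 (triangles, 2 KO and 1 WT) and batch 3 (squares, 1 KO and 3 WT), ordered by the estimate over all arrays. The estimates run from -0.46 (Trim25) to 0.57 (Ifit1), and for Ifit1 and Eif2ak2 the values within both batches lie to the right of it.

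Among the transcription factors of the pathway, all 4 measured members had a lower mean in KO, by 0.09 to 0.36, and none passed the test. Stat2, a subunit of ISGF3, had 9.17, 9.26, 8.96, 9.43 and 9.16 in KO, against 9.5, 9.89, 9.24, 9.42 and 9.75 in WT. KO 3 was the lowest array and WT 2 the highest, and the groups overlapped through KO 2, KO 4, WT 3 and WT 4. The difference was -0.36 (standard error 0.14, unadjusted p = 0.0249, limma adjusted p = 0.999). Within batch 1 it was -0.29, and -0.36 within batch 3. Irf9, the DNA-binding subunit of ISGF3, had 8.73, 9.13, 9.09, 9.28 and 9.15 in KO, against 9.58, 9.62, 9.0, 9.26 and 9.73 in WT. The lowest level was on KO 1, while WT 1, WT 2 and WT 5 lay above every KO array. Its difference was -0.36 (standard error 0.16, unadjusted p = 0.0438, limma adjusted p = 0.999), with -0.65 within batch 1 and -0.14 within batch 3. Stat2 and Irf9 varied together over the 10 arrays (r = 0.84), and over the 7 arrays without KO 2, KO 5 and WT 3 r was 0.83. Irf1, which interferon gamma raises most directly, averaged 8.96 ± 0.36 in KO against 9.1 ± 0.4 in WT (SD, n = 5 each). Irf7, the factor that amplifies interferon production, averaged 8.73 ± 0.19 in KO against 8.82 ± 0.45 in WT (SD, n = 5 each). Irf1 was lowest on KO 5 and Irf7 on WT 3, and both were high on WT 2 and WT 5.

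The nucleic acid sensors did not move as one. Dhx58, the RNA helicase LGP2 that regulates the other RIG-I-like helicases, had 8.71, 8.91, 9.38, 9.7 and 9.18 in KO, against 9.74, 9.9, 9.12, 9.47 and 9.82 in WT. KO 1 and KO 2 were the lowest arrays and WT 2 and WT 5 the highest. The difference of -0.43 (standard error 0.21, limma adjusted p = 0.999) was -0.93 within batch 1 and -0.32 within batch 3. Ifih1 (MDA5), which detects long double-stranded RNA, had 8.22, 9.09, 7.29, 7.65 and 8.82 in KO, against 7.7, 7.75, 8.82, 8.26 and 7.67 in WT. It was highest on KO 2, KO 5 and WT 3, so that high and low arrays stood in both genotypes. Its difference was 0.17 (standard error 0.36). Ddx58 (RIG-I), the sensor of uncapped RNA ends, had 9.23, 10.15, 8.87, 9.38 and 9.84 in KO, against 9.52, 9.56, 9.77, 10.08 and 9.8 in WT. The highest array was KO 2, followed by WT 4. Its difference was -0.25 (standard error 0.23), and r between Ifih1 and Ddx58 was 0.70, against -0.68 between Ifih1 and Dhx58. Zbp1, a sensor of Z-form nucleic acids, averaged 7.19 ± 0.28 in KO against 7.15 ± 0.23 in WT (SD, n = 5 each).

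Ifi214 belongs to the Ifi200 (Pyhin) gene cluster of mouse chromosome 1, whose members sense or bind DNA. Its levels were 4.32, 4.29, 4.38, 4.14 and 4.39 in KO, against 3.67, 4.04, 3.87, 3.79 and 3.94 in WT. Every KO array lay above every WT array, with KO 4 and WT 2 closest to each other. The mean was 4.31 ± 0.10 in KO against 3.86 ± 0.14 in WT (SD, n = 5 each), a difference of 0.44 (standard error 0.10). The unadjusted p was 0.00089 and the limma adjusted p 0.999. Within batch 1 the difference was 0.64 and within batch 3 it was 0.50. Its levels were near the low end of the array's scale (2.75 to 14.64 over all probes), and RMA gives no detection call. The other 5 measured genes of the cluster, none of them a member, had overlapping levels. Ifi35, a leucine zipper protein, averaged 9.56 ± 0.37 in KO and 9.59 ± 0.36 in WT, and Ifi27, a small hydrophobic protein, 12.47 ± 0.18 in KO against 12.39 ± 0.18 in WT (SD, n = 5 each). Ifi35 had 9.51, 9.13, 9.91, 9.97 and 9.27 in KO, against 10.07, 9.72, 9.22, 9.24 and 9.67 in WT, with its lowest levels on KO 2, WT 3, WT 4 and KO 5.

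Trim25, the ubiquitin ligase that activates RIG-I, had the most negative difference. Its levels were 9.98, 10.53, 9.99, 10.59 and 10.6 in KO, against 10.71, 11.01, 10.59, 10.8 and 10.87 in WT. KO 1 and KO 3 lay apart at the low end, and KO 4 and KO 5 reached the lowest WT array. The difference was -0.46 (standard error 0.16, unadjusted p = 0.014, limma adjusted p = 0.999), with -0.46 within batch 1 and -0.21 within batch 3. KO 1 and KO 3 are the arrays with the high adipocyte means, and without them the difference of Trim25 was -0.23. The part of those cells in the result was not tested. Usp18, the protease that removes ISG15 from proteins and dampens the receptor, averaged 8.2 ± 0.27 in KO against 8.42 ± 0.38 in WT (SD, n = 5 each). The probe shared by Isg15, the ubiquitin-like modifier itself, and Gm9706 had 7.18, 6.93, 7.18, 7.0 and 6.46 in KO, against 7.31, 7.17, 6.65, 6.74 and 7.1 in WT, which overlapped (difference -0.04).

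Active enzymes of the OAS family make the second messenger that activates RNase L. Of the 5 measured members of the family, 2 had a higher and 3 a lower mean in KO. Oasl2 had 8.61, 8.92, 9.01, 9.2 and 8.72 in KO, against 9.29, 9.4, 8.78, 9.04 and 9.3 in WT. WT 1, WT 2 and WT 5 lay above every KO array, and WT 3 below 3 of them. The difference was -0.27 (standard error 0.15), with -0.53 within batch 1 and -0.35 within batch 3. Oasl1, which in mouse represses translation of Irf7, had 8.07, 7.63, 8.36, 8.4 and 7.61 in KO, against 8.09, 8.26, 7.61, 8.07 and 7.95 in WT. KO 2, KO 5 and WT 3 were the lowest arrays, at almost the same level. Oas2 averaged 7.03 ± 0.24 in KO and 6.81 ± 0.16 in WT, Oas1a 7.62 ± 0.16 in KO and 7.67 ± 0.20 in WT, and Oas3 6.45 ± 0.14 in KO against 6.52 ± 0.13 in WT (SD, n = 5 each).

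**Figure D2:**
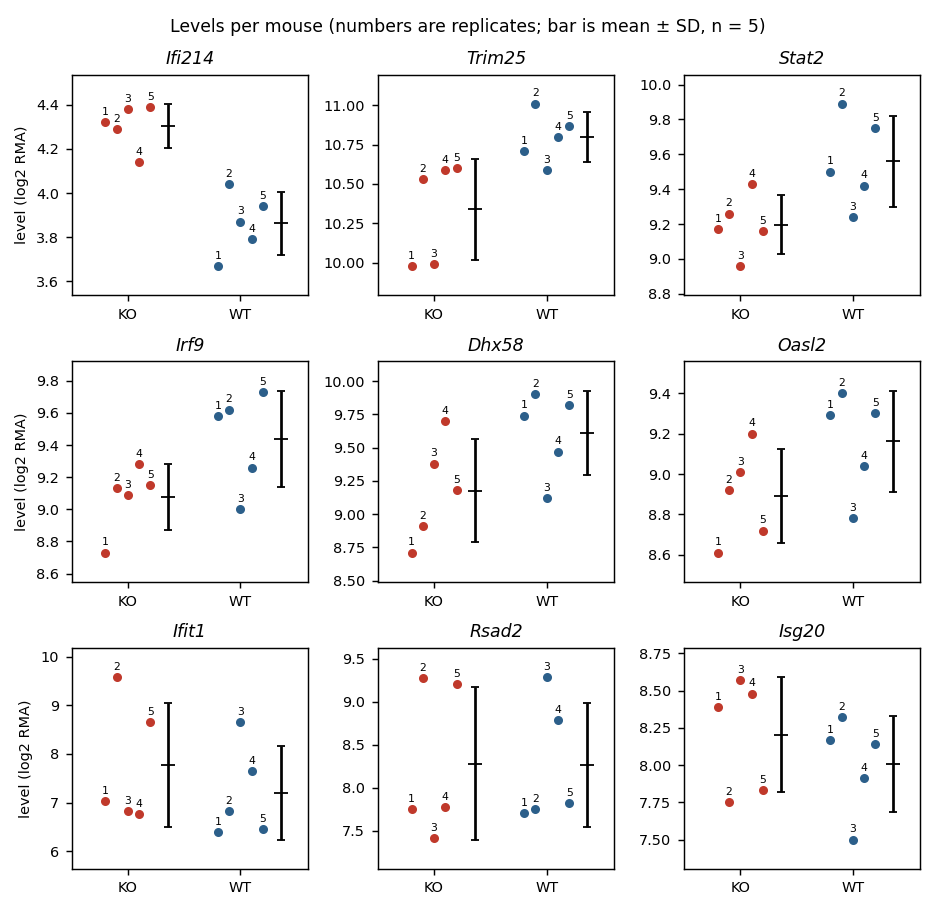
Levels (log2 RMA) of 9 members on each array, with KO left and WT right, replicate numbers over the points, and the mean ± SD of 5 mice as a bar beside each group. Ifi214 shows no overlap, while Ifit1 and Rsad2 are high on KO 2, KO 5 and WT 3 in both genotypes and Isg20 is low on the same arrays.

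Of all members, Ifit1 had the widest range over the arrays. The IFIT proteins bind viral RNA and block its translation. Ifit1 had 7.03, 9.57, 6.83, 6.77 and 8.66 in KO, against 6.39, 6.83, 8.66, 7.65 and 6.46 in WT. KO 2, KO 5 and WT 3 stood high, WT 4 was intermediate, and the other 6 arrays lay at 7.03 or below. KO 2 exceeded WT 1 by 3.18, a factor of 9.06, whereas the genotype difference was 0.57 (standard error 0.63). Ifit2 had 6.31, 7.88, 6.51, 6.23 and 7.5 in KO, against 6.16, 6.1, 7.61, 7.15 and 6.16 in WT, and followed Ifit1 (r = 0.97, and 0.87 without KO 2, KO 5 and WT 3). Ifit3, from the same gene cluster on chromosome 19, did not. It had 8.05, 8.97, 8.01, 8.04 and 8.23 in KO, against 8.55, 8.62, 8.08, 8.51 and 8.37 in WT. KO 2 was high for Ifit3 as well, but KO 5 and WT 3 were not, and r with Ifit1 was 0.33. The genotype difference of Ifit3 was -0.16 (standard error 0.19, limma adjusted p = 0.999).

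Of the other antiviral effectors, Eif2ak2 and Rsad2 had the same high arrays as Ifit1. Eif2ak2 (PKR), the kinase that halts translation on double-stranded RNA, had 7.72, 9.47, 7.03, 7.34 and 9.2 in KO, against 7.43, 7.45, 9.2, 8.08 and 7.1 in WT. Rsad2 (viperin), whose product terminates viral RNA synthesis, had 7.75, 9.27, 7.41, 7.77 and 9.2 in KO, against 7.7, 7.75, 9.28, 8.78 and 7.82 in WT. In both, KO 2, KO 5 and WT 3 were the 3 highest arrays and WT 4 came next. The means of Rsad2 were 8.28 ± 0.89 in KO against 8.27 ± 0.72 in WT (SD, n = 5 each), a difference of 0.01. Xaf1, an antagonist of an apoptosis inhibitor, had 7.87, 9.15, 7.97, 8.22 and 8.31 in KO, against 8.34, 8.53, 8.18, 8.35 and 8.46 in WT, with KO 2 alone standing high. Isg20, an RNA exonuclease, had 8.39, 7.75, 8.57, 8.48 and 7.83 in KO, against 8.17, 8.32, 7.5, 7.91 and 8.14 in WT. It ran the opposite way, lowest on WT 3, KO 2 and KO 5. Bst2 (tetherin), which holds budding virus at the membrane, averaged 9.79 ± 0.54 in KO and 9.94 ± 0.35 in WT, and Rtp4, a receptor transporter protein, 8.99 ± 0.45 in KO against 9.27 ± 0.25 in WT (SD, n = 5 each).

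The MX and interferon gamma-induced GTPases and the PARP genes had genotype differences within the spread between mice, and KO 2 was among the 3 highest arrays for each of them except Mx1. Mx2 had 5.85, 7.04, 5.2, 5.52 and 6.15 in KO, against 5.69, 5.76, 6.01, 6.52 and 5.93 in WT, a difference of -0.03 (standard error 0.31). Irgm1 had 8.82, 9.58, 8.43, 8.38 and 9.18 in KO, against 8.95, 9.12, 9.13, 9.28 and 9.27 in WT, a difference of -0.27 (standard error 0.22). For both, KO 2 was the highest array, WT 4 the highest WT array, and KO 3 and KO 4 the lowest. Parp14, a mono-ADP-ribosyltransferase, had 8.28, 8.86, 7.56, 7.45 and 8.59 in KO, against 7.78, 7.86, 8.72, 8.44 and 8.14 in WT. KO 2, WT 3 and KO 5 were high and KO 3 and KO 4, the arrays of batch 2, low. Parp9, another PARP gene, followed it closely (r = 0.94, and 0.99 without KO 2, KO 5 and WT 3) and averaged 8.05 ± 0.51 in KO and 8.23 ± 0.31 in WT. Gbp3, a guanylate-binding protein, averaged 8.07 ± 0.66 in KO and 8.08 ± 0.59 in WT, and Mx1 5.21 ± 0.13 in KO against 5.27 ± 0.10 in WT (SD, n = 5 each). The probe shared by Gbp2 and Gbp2b had 10.06, 8.39, 8.88, 8.27 and 8.91 in KO, against 8.5, 8.89, 9.28, 8.95 and 9.39 in WT, with KO 1 alone above 10. The probe shared by Igtp and Irgm2 had 8.97, 8.58, 8.46, 8.37 and 8.47 in KO, against 8.74, 8.94, 8.79, 8.81 and 9.18 in WT, a difference of -0.32 (limma adjusted p = 0.999).

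Over the 10 arrays the members did not vary as 1 block. The median Pearson r over their 528 pairs was 0.09, against 0.05 over all pairs of genes. Of the pairs, 27.1% had r over 0.5 and 21.0% had r under -0.5, where all gene pairs had 21.3% and 17.9%. These correlations are descriptions over 10 arrays that share batches and cell mixtures. The closest pairs were Ifih1 with Eif2ak2 (r = 0.98) and Ifit1 with Ifit2 (r = 0.97), and the most opposed were Ifi35 with Gbp3 and with Parp14 (r = -0.95 each). Against the mean of the other members, r was highest for Irgm1 (0.94), Ddx58 (0.93), Mx2 (0.92), Parp14 (0.80), Xaf1 (0.78) and Ifih1 (0.74), and lowest for Isg20 and Ifi35 (-0.81 each) and Oasl1 (-0.78). A smaller set, picked out from these values and so not tested, held Stat2, Irf9, Irf7, Usp18, Dhx58 and Oasl2, whose pairs had r from 0.64 to 0.94 and whose highest or second highest array was WT 2. Oas2 ran against it, with r = -0.86 to Oasl2 and -0.80 to Dhx58.

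**Figure D3:**
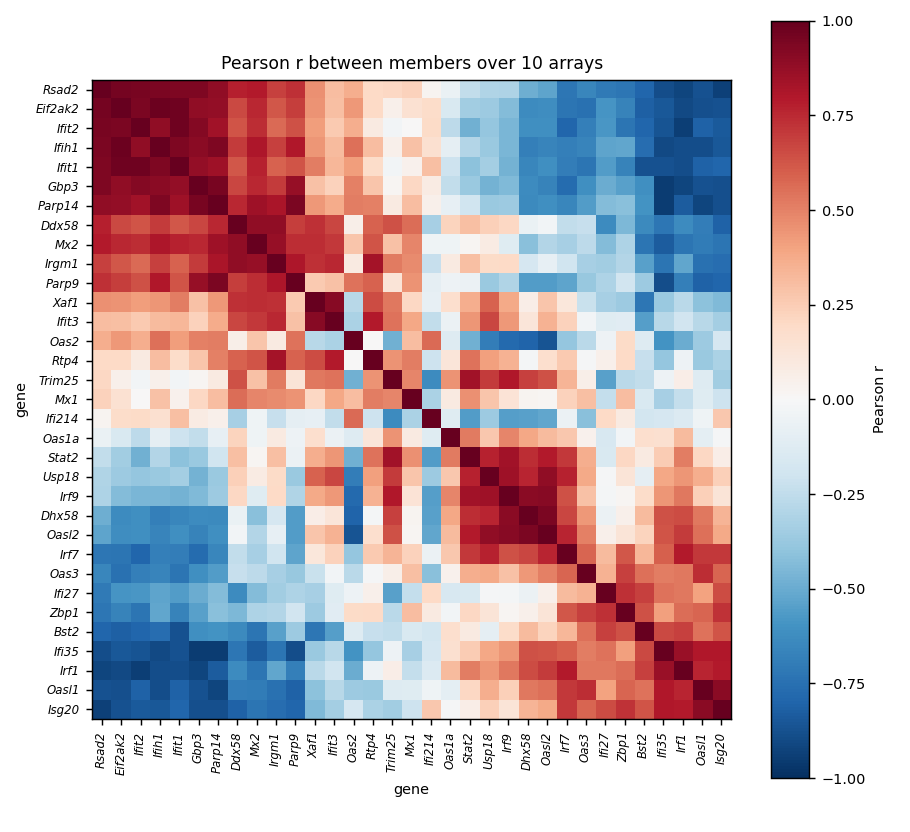
Pearson r over 10 arrays between all pairs of the 33 measured members, ordered by their r with the first component of the genes outside the interferon lists. The members from Rsad2 to Xaf1 form a block of mostly positive r, and those at the other end, from Ifi27 to Isg20, correlate mostly negatively with it.

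This split followed the main axis of the arrays as a whole. The first principal component of the 19540 genes outside the interferon lists held 52.4% of their variance, with a score of 0.49 for KO 2, of 0.43 for KO 5, of 0.41 for WT 3 and of 0.14 for WT 4, the other 6 arrays lying between -0.39 and -0.15. Of the members, 12 had r over 0.5 with it (36.4%, against 22.7% of all genes), namely Rsad2, Eif2ak2, Ifit2, Ifit1, Ifih1, Gbp3, Parp14, Ddx58, Mx2, Irgm1, Parp9 and Xaf1. Rsad2 stood at r = 0.99 and Eif2ak2 at 0.96. A further 9 had r under -0.5 (27.3%, against 40.5% of all genes), namely Isg20 (-0.93), Oasl1, Irf1, Ifi35, Bst2, Zbp1, Oas3, Ifi27 and Irf7 (-0.67). The other 12 lay between. A match to the GAAA pair stood in the promoters of 7 of 9 members with a window in the first set, of 2 of 7 in the second and of 4 of 7 between. For TTCNNNGAA the counts were 2 of 9, 4 of 7 and 1 of 7. Neither split was tested. KO 2 was the highest array for 11 members, against 11.5% of all genes, and KO 3 the lowest for 9, against 13.4% of all genes.

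**Figure D4:**
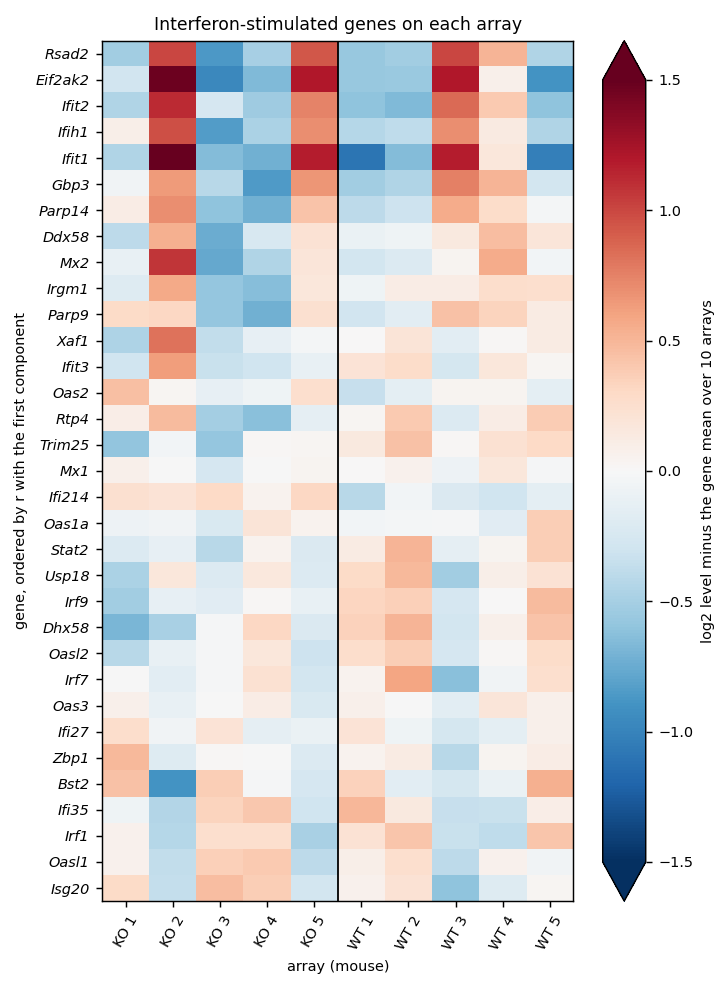
Level of each measured member on each array minus its mean over the 10 arrays (log2, beyond the ends of the colour bar in the darkest colour), with KO arrays left of the line and WT arrays right, and genes ordered by r with the first component. The upper rows are high on KO 2, KO 5, WT 3 and in part WT 4, and the lowest rows are low there.

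**Figure D5:**
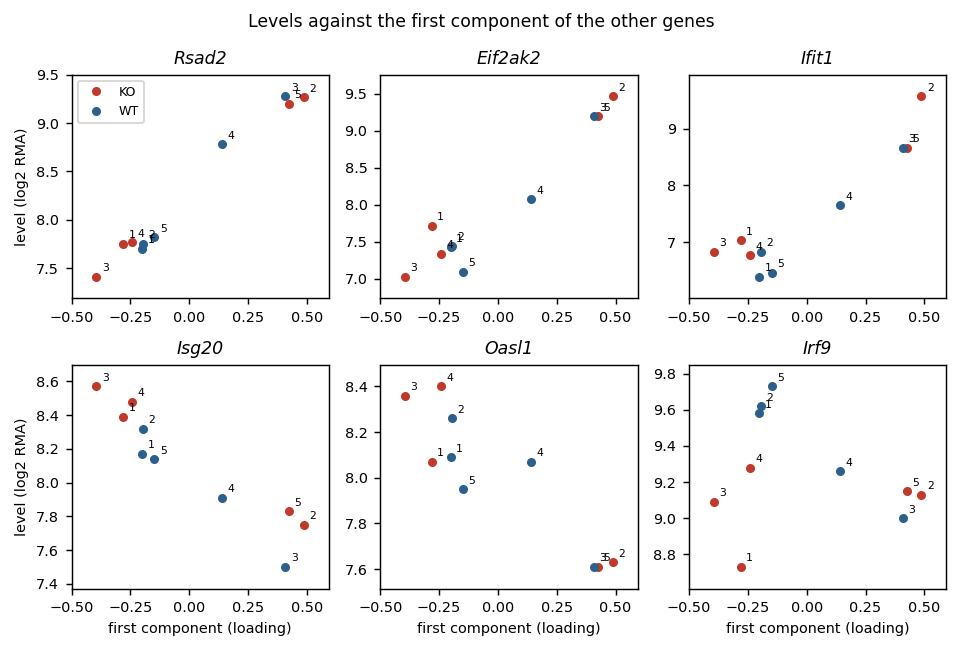
Level (log2 RMA) of 6 members against the first component of the genes outside the interferon lists, with 1 point per array, its replicate number, and colour for KO and WT. Rsad2, Eif2ak2 and Ifit1 increase along the axis, Isg20 and Oasl1 decrease, and for Irf9 WT 1, WT 2 and WT 5 lie above the KO arrays at similar scores.

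With the first component as a covariate, a fit chosen after seeing the data, 1 probe was called over the whole array (0.0039%), that of Glb1l3, and no member. At an unadjusted p under 0.05, 4 members stood higher in KO (Ifi214, Ifit1, Eif2ak2 and Isg20) and 4 lower (Stat2, Irf9, Dhx58 and Trim25), where 3.56% of all genes stood higher and 6.89% lower. For Ifit1 the difference was 0.58 with a standard error of 0.17 in place of 0.63 (unadjusted p = 0.0059, limma adjusted p = 0.437). Without KO 2, KO 5 and WT 3, also chosen after seeing the data, the difference of Ifit1 was 0.05 (unadjusted p = 0.875). That fit called no probe, but 11 of the 33 members and 3126 of 25664 probes had an unadjusted p under 0.05. Trim25 (-0.67), Irgm1 (-0.61) and Ifit3 (-0.48) were among the lower ones, and Ifi214 (0.42) and Isg20 (0.35) stood higher. With batch as a fixed block, 13 of the 33 members had the other sign, and within batch 1 and batch 3 it was 12 and 10. The members lower in KO then numbered 17, 16 and 18, in place of 22. Ifi214, Trim25, Stat2, Irf9, Dhx58 and Oasl2, picked for the smallest p over all arrays, kept their sign in these 3 fits. Ifit1 had a difference of 1.91 within batch 1 and 0.95 within batch 3. KO 2, with the score of 0.49, is in batch 1 and KO 5, with 0.43, in batch 3.

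Markers of macrophages, which express many of the members, mostly fell along the same axis. Of 16 markers (Cd68, Csf1r, C1qa and Cd74 among them), 11 had r under -0.5 with the first component (68.8%, against 40.5% of all genes). Only 1 had r over 0.5 (6.25%, against 22.7% of all genes). This was not particular to macrophages. Of 8 T and NK cell markers, 6 had r under -0.5 and 0 over 0.5, and of 10 endothelial ones 5 and 2. All 16 macrophage markers had a lower mean in KO, none past the test. Their mean level was 9.76, 8.78, 9.47, 9.49 and 9.28 in KO, against 9.57, 9.93, 9.27, 9.34 and 9.89 in WT. It was lowest on KO 2 and highest on WT 2 and WT 5, where Irf7, Irf9 and Dhx58 were also high. KO 1 had the third highest mean, but Irf9 and Dhx58 were at their lowest there. The 10 endothelial markers likewise all had a lower mean in KO, with array means of 9.87 to 10.31 in KO and 10.11 to 10.61 in WT. This was not particular to these 2 lists. All 10 adrenal cortex and all 9 chromaffin markers also had a lower mean in KO, while all 9 adipocyte and all 6 liver markers had a higher one. Of all genes, 53.2% had a lower mean in KO. No defining marker of the macrophage and endothelial lists was classed as absent, because RMA gives no detection call. The part of these cell types in the members' levels was not tested.

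The rest of the pathway gave no called gene either. Of 15 measured interferon ligands, 9 had a higher and 6 a lower mean in KO, with differences of -0.09 to 0.35. Ifna11 was the ligand with an unadjusted p under 0.05, with 4.61, 4.28, 4.57, 4.6 and 4.28 in KO, against 3.96, 4.09, 4.32, 4.07 and 4.14 in WT. Its groups overlapped by WT 3 alone (difference 0.35, standard error 0.11, unadjusted p = 0.00866, limma adjusted p = 0.999). Like those of Ifi214, its levels were near the low end of the array's scale. Of all genes, 3.61% had an unadjusted p under 0.05. Of the 6 receptor chains, 3 had a higher and 3 a lower mean in KO. Ifnar1, the signalling chain of the type I receptor, had 9.42, 9.75, 9.24, 9.41 and 9.7 in KO, against 9.72, 9.85, 9.64, 9.83 and 10.08 in WT. The difference was -0.32 (standard error 0.13, unadjusted p = 0.0296), with -0.13 within batch 1 and -0.08 within batch 3. Of 10 measured genes of sensing upstream of interferon, 4 had a higher and 6 a lower mean in KO, and of 7 negative regulators 2 and 5.

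Of 43 further interferon-induced genes, 15 had a higher and 28 a lower mean in KO, with a median difference of -0.09. The share with a lower mean was 65.1%, against 66.7% of the members and 53.2% of all genes. Cmpk2, a nucleotide kinase next to Rsad2 in the genome, had 7.46, 7.82, 7.63, 7.78 and 7.65 in KO, against 7.86, 8.32, 8.03, 7.69 and 8.2 in WT. It did not share the high arrays of Rsad2 (r with the first component 0.02), and its difference was -0.35 (standard error 0.13, unadjusted p = 0.0242, limma adjusted p = 0.999). Trim21, a cytosolic antibody receptor and ubiquitin ligase, had 7.96, 8.47, 8.05, 8.36 and 8.75 in KO, against 8.51, 8.69, 8.86, 8.74 and 8.81 in WT. KO 1 and KO 3 were lowest, as for Trim25 (difference -0.41, standard error 0.15, unadjusted p = 0.0226), and within batch 3 the difference was -0.02. Of the 43 genes, 14 had r over 0.5 with the first component (32.6%, against 22.7% of all genes). Another 18 had r under -0.5 (41.9%, close to the 40.5% of all genes).

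The genes outside the list most like the mean of the members over the 10 arrays were Chmp5 (r = 0.985), Sptssa, Hat1, Ypel5, 1110059E24Rik, Fam114a1, Tvp23b, Tfam, C1d and Erp44 (r = 0.966). Their r with the first component was 0.81 to 0.89. Chmp5, a subunit of the ESCRT-III membrane-remodelling complex, had 10.7, 11.57, 10.33, 10.58 and 11.22 in KO, against 10.87, 10.97, 11.21, 11.23 and 11.05 in WT. The mean of the 33 members was 8.17, 8.53, 8.01, 8.11 and 8.37 in KO, against 8.19, 8.3, 8.3, 8.36 and 8.29 in WT. The KO arrays spread more than the WT arrays around nearly the same centre (8.24 ± 0.21 in KO against 8.29 ± 0.06 in WT, SD, n = 5 each), a difference in spread that was not tested.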

How the data were processed

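Whole adrenal RNA was amplified with random hexamers, labelled with biotin and hybridised to whole-transcript arrays. The deposited values are log2 levels per probe, which the submitters' processing notes say the authors made with RMA (background correction, quantile normalisation, probe summary). Software and version: not given in the sources used here. Of 35557 rows, 25689 held values; 25 control probes were left out. Of the 25664 others, 20777 had 1 gene symbol, 232 several and 4655 none. Symbols were checked by Entrez ID against RefSeq GRCm38.p6 (19584 of 19661 genes matched). No build is named for the arrays, so coordinates are those of RefSeq.

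Genotypes were compared by lmFit and eBayes (limma 3.58.1, R 4.3.3, two-sided) with genotype as the only term, Benjamini-Hochberg over all probes, threshold 0.05. Members, pathway lists and markers were chosen with earlier results of these data known. Values on every array are given for the 6 members with the smallest p, the 6 with the widest range, the 6 with the highest and 3 with the lowest r to the mean of the others, non-overlapping members, and pathway genes at an unadjusted p under 0.05. The array values of Ifit3, Jak2, Ddx60, Ifi203, Iigp1 and Cxcl9 and the naming of Glb1l3 were added once values had been seen. Alternatives were batch as a fixed or random block (consensus correlation 0.172), single batches (the lone WT array of batch 1 and KO array of batch 3 taken to vary like the others), a median shift, repeated quantile normalisation, brighter or single-symbol probes, trend and robust eBayes, arrayWeights, a threshold of 0.01, other probe summaries and correlations, and leaving out each array. The first component as a covariate, and fits without KO 2, KO 5 and WT 3 or without KO 1 and KO 3, were added after seeing the data. The component comes from the same arrays, so p-values of that fit may be too small. The labels number the mice, so arrays were taken as separate animals. Tested on simulated data of 25664 probes, the fit recovered 19.1%, 64.9% and 91.7% of differences of 0.5, 1 and 2 (log2). The simulated noise was independent between probes, without batches or a shared component, so these shares need not hold for these arrays.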

Additional observations from a re-analysis of the deposited data

Results flagged for a closer look

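Among 68 groups of 5 levels (each member and the mean of all members, in each genotype), 4 held 1 array far from the others, where chance gives about 1 in 20 groups. Ifit3 was 8.97 on KO 2, against 8.01 to 8.23 on the other KO arrays. Mx1 was 4.99 on KO 3, against 5.23 to 5.32 on the other KO arrays. Oas1a was 8.01 on WT 5, against 7.47 to 7.63 on the other WT arrays. Zbp1 was 6.75 on WT 3, against 7.21 to 7.29 on the other WT arrays.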

How the results depend on the processing

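No member was called under any alternative run, and the 6 members with the smallest p kept their sign in all 20. They were picked for their p in these same data and the runs reuse the same arrays, so the kept sign is no independent support. The number of probes called was 1 with the first component as a covariate and 0 in all other fits (878 at an unadjusted p under 0.05 with genotype alone). The median difference of the members was -0.09 to -0.05 when each array was left out. Without KO 2, KO 5 and WT 3 it was -0.15, against 0.01 over all genes. The median pairwise r of the members was 0.09, 0.05 to 0.13 when each array was left out, and 0.20 for members with a mean above the median gene. The difference of Crem was 0.16 with batch as a fixed block, 0.22 within batch 1 and 0.10 within batch 3, against -0.18 over all arrays; the cause was not tested. No paired analysis was possible because the labels give no replicate number shared by the groups. Batches 2 and 4 hold 1 genotype each, 5 arrays a group limit the precision, and signal near background was not separated from expression.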

Other observations

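Jak2, Ddx60 and Ifi203, chosen after their values were seen, had the same high arrays as Rsad2. Jak2, a kinase of the interferon gamma receptor, had 7.98, 9.22, 7.14, 7.08 and 9.07 in KO, against 7.48, 7.23, 9.21, 8.57 and 7.5 in WT. Ddx60, a helicase that promotes RIG-I signalling, had 6.48, 8.77, 6.53, 6.29 and 8.45 in KO, against 6.58, 6.59, 8.43, 6.8 and 6.17 in WT. Ifi203, of the same cluster as Ifi214, had 7.68, 8.69, 6.33, 6.37 and 8.95 in KO, against 6.49, 6.22, 8.81, 7.15 and 6.72 in WT. For a pair of interferon gamma targets, picked from their values, KO 1 was the highest array. KO 1 was also highest for the probe shared by Gbp2 and Gbp2b, but not for Irf1, Gbp3 or Irgm1. Iigp1, a GTPase, had 8.69, 7.4, 5.93, 5.4 and 7.59 in KO, against 5.69, 5.66, 8.49, 6.29 and 5.57 in WT, so that KO 2, KO 5 and WT 3 were high as well. Cxcl9, a chemokine for T cells, was 8.88 on KO 1, while all others had 6.25 to 7.61. The mean of 8 T and NK cell markers was 6.64 on KO 1, against 5.6 to 6.13 on the others. KO 1 also had the highest mean of liver markers (12.62, against 6.51 to 8.94 on the others) and of adipocyte markers (12.51). The part of any of these cells in the levels of Iigp1 and Cxcl9 was not tested.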
